A study of Mus musculus with 4 samples.

Results

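The genes described here encode enzymes that write or erase acetyl and methyl groups on histones and on other proteins: the histone deacetylases (Hdac), sirtuins (Sirt), lysine acetyltransferases (Kat), the EZH and SETD lysine methyltransferases, the protein arginine methyltransferases (Prmt) and the lysine demethylases (Kdm). They were measured in TS2 and TS1, mouse cell lines that the labels derive from CD4+ T lymphocytes. A gene was a member if a probe set naming only that gene carried a symbol of these families followed by a digit, with Kdm5c, Kdm5d and Kdm6a left out by the same rule. This gave 59 genes, read by 65 probe sets, of 19938 genes measured in all. Where a gene had several probe sets, the brightest by its mean over the arrays stood for it.

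TS2 and TS1 cells were grown alike in Iscove-Dulbecco's medium with murine interleukin-9, a growth factor of T cells and mast cells, with no further treatment. Each line gave 2 biological duplicates, A and B, and the RNA of each was read on its own Affymetrix mouse gene array. Each group is thus a single cell line, and a difference is a difference between these lines. All values below are log2 of the intensities that the authors normalized with RMA, and all differences are TS2 minus TS1 with their standard error (SE, n = 2 arrays per line). A gene was called when its p from limma, a linear model that shares variance between genes, stayed under 0.05 after Benjamini-Hochberg adjustment over all 19938 genes. For a single gene, exact permutation of 2 against 2 arrays (two-sided) reaches 0.333 at the lowest.

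The arrays of a line correlated at r = 0.994 in TS2 and 0.992 in TS1, against 0.969 to 0.976 between lines, across 35556 probe sets that are not independent replicates. Of 11 measured T cell markers, 3 were higher in TS2 and 1 was lower, and the labelled cell type was only partly borne by its defining genes. Cd4 lay between 5.15 and 5.28 in TS2 and between 5.36 and 5.38 in TS1, and Cd3d between 4.80 and 4.92 in TS2 and between 4.63 and 4.92 in TS1. Cd3e had 12.74 and 12.53 in TS2 and 6.45 and 6.41 in TS1, and Ptprc, the pan-leukocyte antigen CD45, had 11.11 and 10.96 in TS2 and 5.001 and 4.99 in TS1. The signalling genes differed in opposite directions, Zap70 by 2.27 and Lat by -2.05. Cd3g, a further chain of the T cell receptor complex, was at 10.39 and 11.98 on TS2 A and B and at 10.52 and 6.07 on TS1 A and B, so the TS1 duplicates stood apart there. Of 6 B cell, 8 myeloid and 9 fibroblast and epithelial markers, 2 were lower in TS2 and 0 higher by limma, with 2 higher and 5 lower at an unadjusted p under 0.05. Over all 19938 genes, 2462 were higher and 3400 lower at that unadjusted threshold. Of 8 mast cell markers 1, Kit, was lower in TS2 and 0 were higher by limma, with 1 higher and 1 lower at an unadjusted p under 0.05. Fcer1a, a chain of the IgE receptor, lay between 12.69 and 13.08 on all arrays, and Cpa3 between 7.95 and 9.13. Other markers of this list were dim in both lines. Ms4a2 lay between 3.99 and 4.22, Tpsb2 between 5.46 and 5.63 and Hdc between 5.998 and 6.43 on all arrays. The TS2 duplicates stood apart at the mast cell protease genes Mcpt4, with 6.60 and 10.10 in TS2 and 5.45 and 5.33 in TS1, and Cma1, with 5.35 and 8.61 in TS2 and 5.49 and 4.73 in TS1. These genes were named after their values were seen.

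Acetyl groups loosen the grip of histones on DNA and are read by bromodomain proteins, so acetyltransferases are linked to open chromatin and deacetylases to its closure. Methyl groups act by position: Polycomb enzymes such as EZH2 mark silent genes, SETD1 and SETD2 enzymes mark promoters and gene bodies in use, and demethylases remove these marks. In T cells, EZH2 is known for limiting the choice between helper fates, and PRMT5 for supporting cytokine signalling and growth.

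Most of these enzymes were at similar levels in the lines, and those that differed were mostly lower in TS2. Called genes of the whole array were also mostly lower in TS2, with 1685 lower and 1006 higher. Of the 59 genes, 2 were higher in TS2 (Hdac9 and Kdm3b), 9 were lower (Kdm5b, Kdm7a, Sirt3, Hdac8, Prmt5, Hdac10, Sirt4, Kdm1a and Kat8) and 48 were not called. The share called was 18.6%, against 13.5% of all genes, with 3.39% higher against 5.05% of all genes and 15.3% lower against 8.45%. The enzymes were brighter than most genes, since 55 of the 59 lay in the upper 50% of genes by mean. With the dimmest 30% of probe sets left out, 11 of 57 members were called (19.3%), against 20% of the remaining genes. Of these members 2 were higher, against a background of 7.29%, and 15.8% were lower, against 12.7%. Read against these genes, the members' share of calls was near the background.

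The median difference over the 59 genes was -0.13, against 0.013 over all genes. Below 0 lay 39 of the 59 differences, against 9436 of all 19938. After renewed quantile normalization the members' median was -0.046. The differences ran from -1.55 to 2.28, and 4 reached at least 1, which is 2-fold. Under 0.5 in size were 48 of the 59 (81.4%), against 84.4% of all genes. For 43 of the 59 genes (72.9%) the TS2 and TS1 arrays were fully separate, against 58.4% of all genes. That background includes the dim genes. Among the 117 partner genes described below, which are also mostly bright, the share was 77.8%, and among 24 bright cell cycle genes it was 79.2%. In bulk RNA, fewer cells expressing a gene and less RNA per cell cannot be told apart. Fewer members were called whichever array was dropped. Such a fit leaves 1 array in a line and fewer degrees of freedom, so it cannot tell whether the calls rested on a particular array. The members' median difference then ran from -0.14 to -0.091, and no called member changed direction. The forest plot of differences by enzyme class gives each member with its interval.

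**Figure D1:**
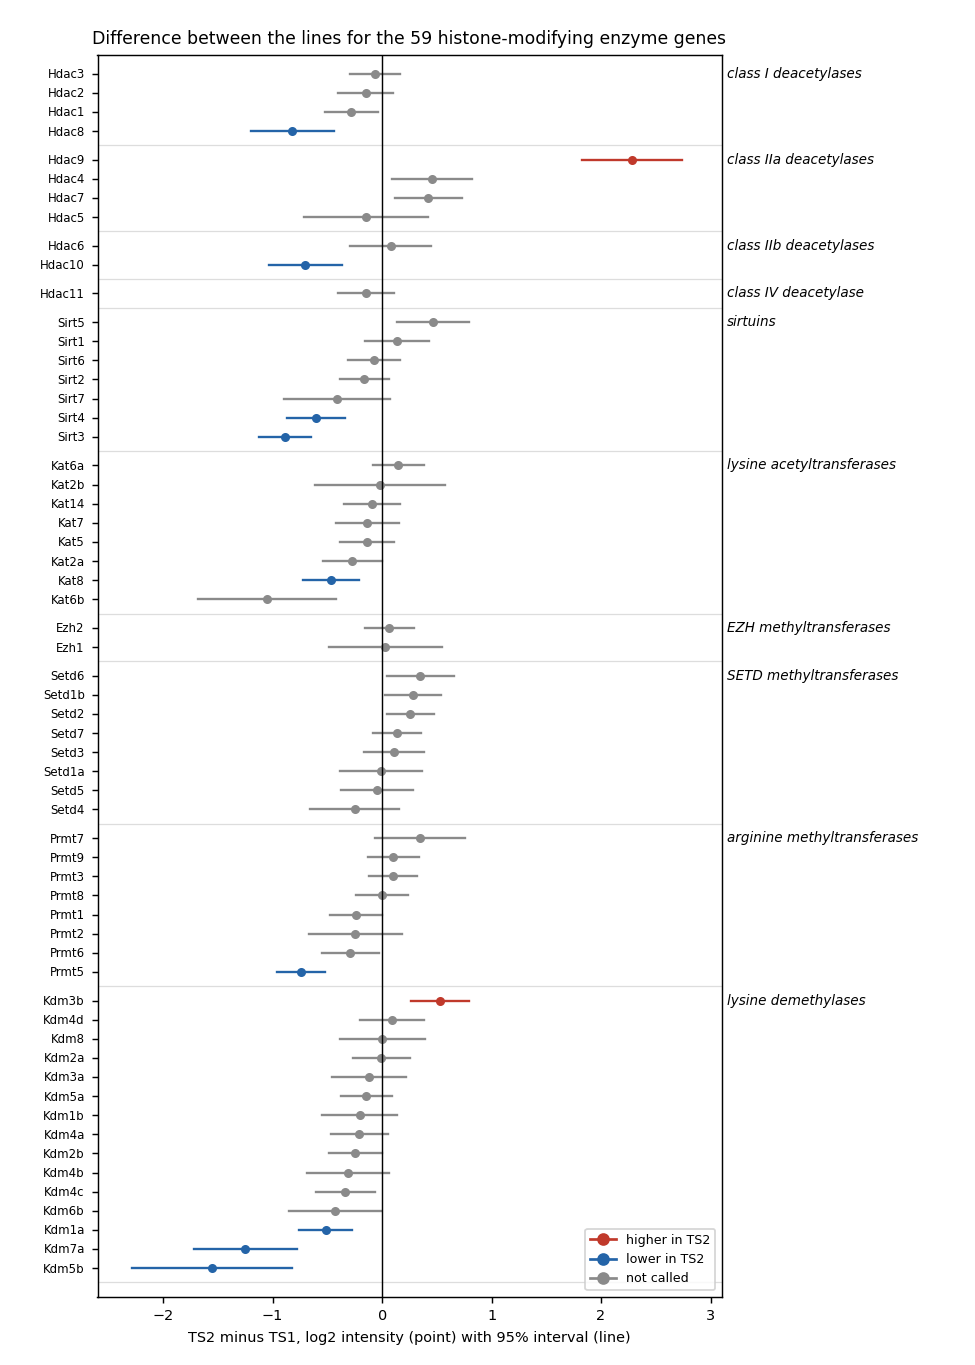
Difference between the lines (horizontal axis, TS2 minus TS1, log2 intensity) for each of the 59 enzyme genes, grouped by class and ordered within it, points with 95% intervals from limma. Hdac9 lies far to the right of all other members at 2.28, and Kdm5b and Kdm7a lie farthest to the left at -1.55 and -1.25.

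The promoters shown are those of called genes with the largest differences in each direction, Hdac9 higher and Kdm5b and Kdm7a lower in TS2. Neither the choice of members nor that of the promoters used base composition. RefSeq promoters of assembly GRCm38.p6 matched 49 of the 59 members, with 67 windows of 250 bases before a start. The called genes Kdm3b and Hdac10 had no match. In capitals are the CG pairs, in which mammalian DNA can be methylated.
Hdac9, chr12:34917096-34917345, strand minus: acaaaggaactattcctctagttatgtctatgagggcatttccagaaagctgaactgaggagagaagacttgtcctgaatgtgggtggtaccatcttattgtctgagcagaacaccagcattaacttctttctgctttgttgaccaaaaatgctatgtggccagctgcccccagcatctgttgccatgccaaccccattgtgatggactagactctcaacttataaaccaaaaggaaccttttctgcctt
Hdac9, chr12:34528890-34529139, strand minus: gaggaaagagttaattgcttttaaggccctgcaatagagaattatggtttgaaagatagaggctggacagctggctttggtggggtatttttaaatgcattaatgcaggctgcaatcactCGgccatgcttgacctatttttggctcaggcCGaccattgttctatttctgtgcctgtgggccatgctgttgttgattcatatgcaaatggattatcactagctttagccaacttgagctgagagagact
Kdm5b, chr1:134559928-134560177, strand plus: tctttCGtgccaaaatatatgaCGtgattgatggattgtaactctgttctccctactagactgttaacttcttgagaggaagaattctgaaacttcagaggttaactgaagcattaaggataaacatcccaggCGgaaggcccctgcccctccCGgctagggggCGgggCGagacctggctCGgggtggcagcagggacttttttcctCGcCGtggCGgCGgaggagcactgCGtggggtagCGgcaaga
Kdm7a, chr6:39206774-39207023, strand minus: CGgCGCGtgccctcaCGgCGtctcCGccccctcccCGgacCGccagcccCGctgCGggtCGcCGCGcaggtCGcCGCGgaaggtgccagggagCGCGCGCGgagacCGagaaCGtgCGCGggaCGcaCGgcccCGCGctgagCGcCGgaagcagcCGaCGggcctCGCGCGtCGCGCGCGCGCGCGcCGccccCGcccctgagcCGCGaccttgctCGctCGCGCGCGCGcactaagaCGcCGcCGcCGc

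The windows of Hdac9 at its outer and inner starts held 0 and 2 CG pairs, at 44.4% and 43.6% G and C. At most 2 CG pairs were found in 29.0% of all 32851 promoter windows and in 5 of the 67 member windows (7.46%). These were both windows of Hdac9, that of Setd5 and a single window each of Kdm3a and Kdm4c. Further windows of Kdm3a held 31 and 20 CG pairs, and a further window of Kdm4c held 19. The window of Kdm7a held 56 CG pairs, the highest count in any of the promoter windows, and that of Kdm5b 13. The median was 17 over the member windows and 6 over all promoters. In the 10 windows of 8 genes lower in TS2, the CG count ran from 5 to 56, with a median of 13.5. The files do not say which start the cells used, nor whether these pairs were methylated.

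Motifs were searched on both strands by their letters. The GC box GGGCGG, a site of SP1, was in 37 of 67 member windows (55.2%), against 32.7% of all promoters, and in 5 of the 10 windows of genes lower in TS2. The CCAAT box, a site of NF-Y written CCAAT, was in 28 (41.8%), against 33.8%, and in 6 of those 10, of which the window of Prmt5 held 4. Windows with the E-box CACGTG, a site of MYC, came to 5 (7.46%), against 6.02%, and with the STAT motif TTCNNNGAA to 5 (7.46%), against 7.02%. Neither the E-box nor the STAT motif was in the windows of called members. The motif read by the zinc finger factors of the GATA family, GATAA, was in 13 member windows (19.4%), against 22.6%, among them the inner window of Hdac9. GGGCGG also holds a CG pair, so these counts are not independent, and the matches only describe the letters.

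Among the zinc-dependent deacetylases, Hdac9 was the member with the largest difference of the whole set. It encodes a class IIa deacetylase, which binds MEF2 transcription factors and has weak catalytic activity of its own. Hdac9, whose promoter windows stand above, had 7.71 and 7.60 in TS2 and 5.13 and 5.61 in TS1, and the arrays of the lines lay far apart. The difference was 2.28 (SE 0.18, adjusted p = 0.00281), a 4.87-fold excess in TS2, and it was called under all 11 alternative settings, with adjusted p from 0.00185 to 0.0195. Since signal over background was not examined, the size of the fold is uncertain where Hdac9 is dim, as in TS1.

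The other class IIa genes did not pass. Hdac7, which is known for its role in thymocyte survival and selection, differed by 0.42 (adjusted p = 0.0879), Hdac4 by 0.46 (adjusted p = 0.108) and Hdac5 by -0.14 (adjusted p = 0.731). The arrays of Hdac7 and Hdac4 did not overlap between the lines, while those of Hdac5 did. A second probe set of Hdac4 gave 0.39.

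The class I deacetylases held 1 called gene of 4. Hdac8, which deacetylates the cohesin subunit SMC3, had 8.60 and 8.31 in TS2 and 9.40 and 9.16 in TS1. Its difference was -0.82 (SE 0.15, adjusted p = 0.0277), or 1.77-fold higher in TS1, with no overlap of arrays. No set of 3 arrays sufficed for the call (adjusted p = 0.0788 on dropping TS1 A, 0.0540 on dropping TS1 B, 0.0566 on dropping TS2 A and 0.116 on dropping TS2 B), while over all 11 alternatives the adjusted p ran from 0.0236 to 0.116. Hdac1 and Hdac2, the paired subunits of the Sin3, NuRD and CoREST complexes, differed by -0.28 (95% interval -0.53 to -0.039, adjusted p = 0.127) and -0.15 (95% interval -0.40 to 0.098, adjusted p = 0.383). Hdac3, the subunit of the NCoR and SMRT complexes, differed by -0.063, with a 95% interval of -0.29 to 0.16. A second probe set of Hdac1 gave -0.31.

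Hdac8 is on chromosome X, where the lines differed more often than elsewhere. Of 739 genes on X, 126 were lower in TS2 (17.1%), against 8.16% of 19106 genes on the autosomes, while 3.92% and 5.11% were higher. Xist, the RNA of the inactive X chromosome, had 5.04 and 4.81 in TS2 and 11.54 and 11.50 in TS1. The part of the X chromosome in the difference of Hdac8 was not tested. Hdac6, also on X, did not follow Hdac8, with 9.48 and 9.60 in TS2 and 9.64 and 9.29 in TS1 (difference 0.077, adjusted p = 0.784). On the autosomes 8 of 57 members were lower and 2 higher.

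Class IIb holds Hdac6, a cytoplasmic tubulin deacetylase, and Hdac10, a polyamine deacetylase. Hdac10 had 7.69 and 7.85 in TS2 and 8.34 and 8.61 in TS1, without overlap. The difference was -0.70 (SE 0.13, adjusted p = 0.0308), and the call was lost on dropping TS1 B (adjusted p = 0.0824), TS2 A (adjusted p = 0.155) or TS2 B (adjusted p = 0.0961), within a range of 0.0264 to 0.155 over the alternatives. Hdac11, the class IV enzyme and a remover of fatty acyl groups, was dim, at 5.66 and 5.51 in TS2 and 5.75 and 5.71 in TS1. Its difference of -0.15 (adjusted p = 0.408) was not called.

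Among the sirtuins, the deacylases that use NAD, both called genes encode enzymes of mitochondria. Sirt3, the main mitochondrial deacetylase, had 7.59 and 7.48 in TS2 and 8.42 and 8.43 in TS1. The difference was -0.89 (SE 0.092, adjusted p = 0.00647), or 1.85-fold higher in TS1, and it was called under all 11 alternatives, with adjusted p from 0.00516 to 0.0470. Sirt4, which restrains glutamate dehydrogenase, had 7.46 and 7.43 in TS2 and 8.14 and 7.96 in TS1. Neither gene's arrays overlapped between the lines. The difference of Sirt4 was -0.60 (SE 0.10, adjusted p = 0.0250). The call of Sirt4 was lost on dropping TS1 A (adjusted p = 0.0602), TS2 A (adjusted p = 0.122) or TS2 B (adjusted p = 0.131), with the A or B letter as a replicate block (adjusted p = 0.0526) and after renewed quantile normalization (adjusted p = 0.0527), and its adjusted p ran from 0.0221 to 0.131 over the alternatives.

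The remaining mitochondrial sirtuin, Sirt5, a desuccinylase, lay on the other side of 0, at 0.46 with a 95% interval of 0.14 to 0.79 (adjusted p = 0.0807). The nuclear and cytoplasmic members were not called either. Sirt1, which deacetylates p53 and histones, differed by 0.13, Sirt6, a chromatin enzyme of DNA repair, by -0.073, Sirt2, a tubulin deacetylase, by -0.16 and Sirt7, a nucleolar enzyme, by -0.41. Their adjusted p-values were 0.516, 0.667, 0.294 and 0.228 in that order. The TS1 duplicates of Sirt7 spread widely, at 10.10 and 9.65.

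Of the 8 lysine acetyltransferase genes, 1 was called and 7 lay below 0, against 9436 of all 19938 genes below 0. Kat8 encodes MOF, the catalytic subunit of the MSL and NSL complexes. It had 8.88 and 8.78 in TS2 and 9.23 and 9.36 in TS1, without overlap. The difference was -0.46 (SE 0.0997, adjusted p = 0.0443). The call was lost with the A or B letter as a replicate block (adjusted p = 0.0991), after renewed quantile normalization (adjusted p = 0.0642) and on dropping either TS1 array (adjusted p = 0.0657 and 0.126 for A and B) or either TS2 array (adjusted p = 0.151 and 0.213 for A and B), within a range of 0.0381 to 0.213. Kat8 and Kdm1a each lost the call under 6 of 11 alternatives, more than any other called member.

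Kat6b, a MYST family acetyltransferase, differed by more than 2-fold but was not called. It had 7.48 and 6.90 in TS2 and 8.02 and 8.46 in TS1, so the arrays did not overlap but both pairs of duplicates spread widely. The difference was -1.05 (SE 0.25, adjusted p = 0.0546), and it passed with an intensity trend in the prior variance (adjusted p = 0.0493), within a range of 0.0493 to 0.168. Its closest relative Kat6a differed by 0.15 (adjusted p = 0.357), with a 95% interval of -0.084 to 0.38. Kat2a and Kat2b, the alternative acetyltransferases of the SAGA complex, differed by -0.27 (adjusted p = 0.172) and -0.018 (adjusted p = 0.974). Kat5, the catalytic subunit of the TIP60 complex, differed by -0.14, Kat7, which acetylates histones at replication origins, by -0.13, and Kat14, of the ATAC complex, by -0.090.

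The Polycomb methyltransferases were at like levels in the lines. Ezh2 had 11.51 and 11.59 in TS2 and 11.50 and 11.47 in TS1. Its difference was 0.067, with a 95% interval of -0.16 to 0.29 (adjusted p = 0.687), so a change of 2-fold lies outside the interval. Ezh1, the paralog known from resting cells, had 9.34 and 9.51 in TS2 and 9.67 and 9.12 in TS1, and differed by 0.028 (95% interval -0.49 to 0.54). The TS1 duplicates of Ezh1 enclosed both TS2 arrays.

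By limma 0 of the 8 SETD genes were called, with 3 higher in TS2 and 0 lower at an unadjusted p under 0.05. At that threshold, 2462 of all 19938 genes were higher and 3400 lower. The largest difference in size was that of Setd6, a methyltransferase of the NF-kappa-B subunit RelA, with 9.33 and 9.31 in TS2 and 8.84 and 9.10 in TS1. It differed by 0.35 (SE 0.12, adjusted p = 0.127), without overlap. Setd1b, of the COMPASS complexes that methylate histone H3 at promoters, differed by 0.29 (adjusted p = 0.137) and Setd2, which marks transcribed gene bodies, by 0.26 (adjusted p = 0.121). For each of Setd1b and Setd2 a second probe set gave the same direction, at 0.19 and 0.28. Setd1a, the relative of Setd1b, differed by -0.010, Setd3, an actin histidine methyltransferase, by 0.11, Setd4 by -0.25, Setd5 by -0.046 and Setd7, which methylates histone H3 and other proteins, by 0.14.

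Of the 8 arginine methyltransferases, 1 was called. Prmt5 encodes the main enzyme for symmetric dimethylation of arginine, which acts on histones and on spliceosome proteins. It had 11.58 and 11.56 in TS2 and 12.33 and 12.29 in TS1, with duplicates close together and no overlap. The difference was -0.74 (SE 0.086, adjusted p = 0.00897), or 1.67-fold higher in TS1. Without TS2 A or TS2 B the call was narrowly lost (adjusted p = 0.0605 and 0.0631), while over the alternatives the adjusted p ran from 0.00171 to 0.0631.

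Prmt1, the main enzyme for asymmetric dimethylation, differed by -0.24 (adjusted p = 0.166), Prmt6, a nuclear relative, by -0.29 (adjusted p = 0.135) and Prmt2 by -0.25 (adjusted p = 0.403). Prmt7, which makes monomethylarginine, differed by 0.35 (adjusted p = 0.236). Prmt3, an enzyme of ribosomal protein S2, and Prmt9, an enzyme of a splicing factor, differed by 0.099 and 0.10. Prmt8, a gene of the brain, was dim on all 4 arrays, at 4.38 and 4.34 in TS2 and 4.42 and 4.30 in TS1.

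Of the 15 lysine demethylases, the largest class, 3 were lower in TS2 and 1 was higher. The share called was 26.7%, against 13.5% of all genes and 20% of genes with the dimmest 30% of probe sets left out. With 15 genes, this share rests on few calls. Kdm5b removes promoter-linked methyl groups from histone H3. It had 7.39 and 8.22 in TS2 and 9.24 and 9.47 in TS1, so the TS2 duplicates lay 0.83 apart but below both TS1 arrays. The difference was -1.55 (SE 0.28, adjusted p = 0.0296), or 2.93-fold higher in TS1. Its call was lost on dropping TS1 A (adjusted p = 0.0733) and on dropping TS1 B (adjusted p = 0.110), within a range of 0.0102 to 0.110. Kdm5a, its relative, differed by -0.14 (adjusted p = 0.376).

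Kdm7a removes methyl groups linked to silent chromatin. It had 8.70 and 8.28 in TS2 and 9.59 and 9.88 in TS1, without overlap. The difference was -1.25 (SE 0.18, adjusted p = 0.0164), or 2.38-fold higher in TS1. A second probe set of Kdm7a gave -1.22. The call was lost on dropping TS1 B (adjusted p = 0.0634) and on dropping TS2 B (adjusted p = 0.0563), within a range of 0.0131 to 0.0634.

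Kdm1a, or LSD1, a flavin-dependent demethylase of the CoREST complex, had 10.09 and 9.98 in TS2 and 10.59 and 10.51 in TS1. The difference was -0.52 (SE 0.094, adjusted p = 0.0293), without overlap of arrays. Its call was lost with the replicate block (adjusted p = 0.0614), after renewed quantile normalization (adjusted p = 0.0539) and on dropping either TS1 array (adjusted p = 0.0795 and 0.0713 for A and B) or either TS2 array (adjusted p = 0.114 and 0.161 for A and B), within a range of 0.0208 to 0.161. Kdm1b, the paralog, differed by -0.21 (adjusted p = 0.386).

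Kdm3b, a demethylase of a silencing mark of histone H3, was the only demethylase called higher in TS2. It had 10.47 and 10.39 in TS2 and 9.99 and 9.82 in TS1, without overlap. The difference was 0.53 (SE 0.10, adjusted p = 0.0351), or 1.44-fold. The call was lost with the replicate block (adjusted p = 0.0630) and on dropping TS1 B (adjusted p = 0.0987), TS2 A (adjusted p = 0.182) or TS2 B (adjusted p = 0.136), within a range of 0.0273 to 0.182. Its paralog Kdm3a, a gene induced by low oxygen, differed by -0.12 (adjusted p = 0.622).

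Of the other demethylases, Kdm6b, which removes the Polycomb mark, had 8.65 and 9.08 in TS2 and 9.35 and 9.23 in TS1. The arrays of Kdm6b did not overlap, but its difference of -0.43 did not pass (adjusted p = 0.164). The 4 members of the KDM4 subfamily, Kdm4a, Kdm4b, Kdm4c and Kdm4d, differed by -0.21, -0.31, -0.34 and 0.090, and Kdm4d was dim on all arrays (4.91 to 5.15). Kdm2a and Kdm2b, which bind unmethylated CG pairs in DNA, differed by -0.0076 and -0.24, and Kdm8 by 0.0023. Of the 48 uncalled members over all classes, 47 had a 95% interval within 1 of 0 on the log2 scale, the exception being Kat6b, and 28 had it within 0.5 of 0.

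**Figure D2:**
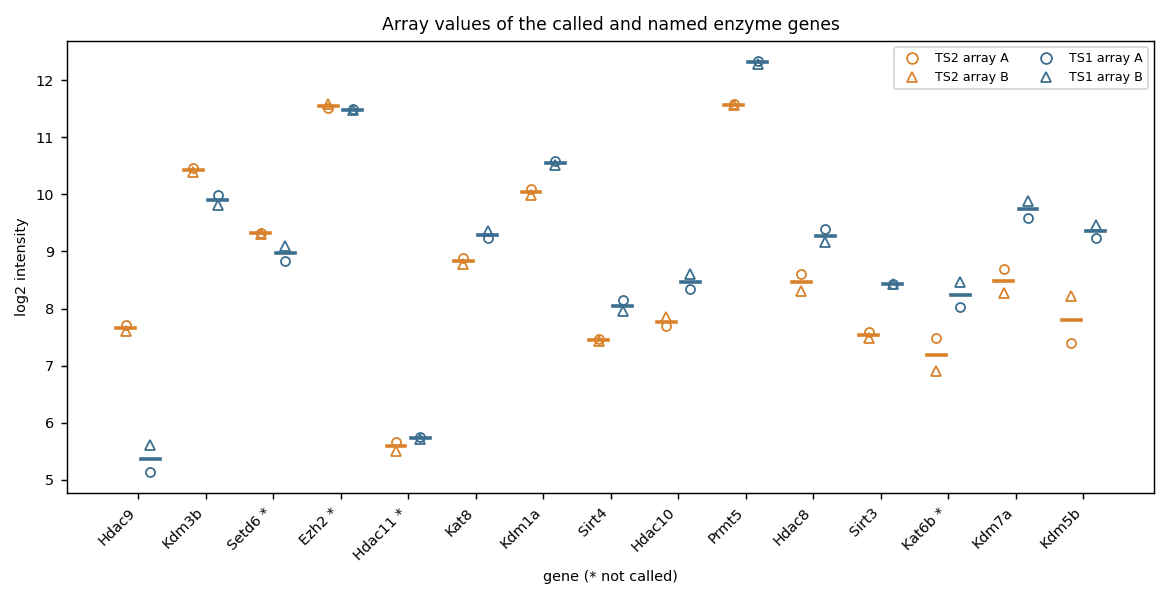
Log2 intensity (vertical axis) of the 15 named enzyme genes on each array, TS2 left and TS1 right within each gene, circles for array A, triangles for array B and bars for the mean, ordered from the highest to the lowest difference. Both TS2 arrays of Hdac9 lie above 7.60, against at most 5.61 in TS1, and the spread of Kdm5b between the TS2 arrays exceeds that of any other gene shown.

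**Figure D3:**
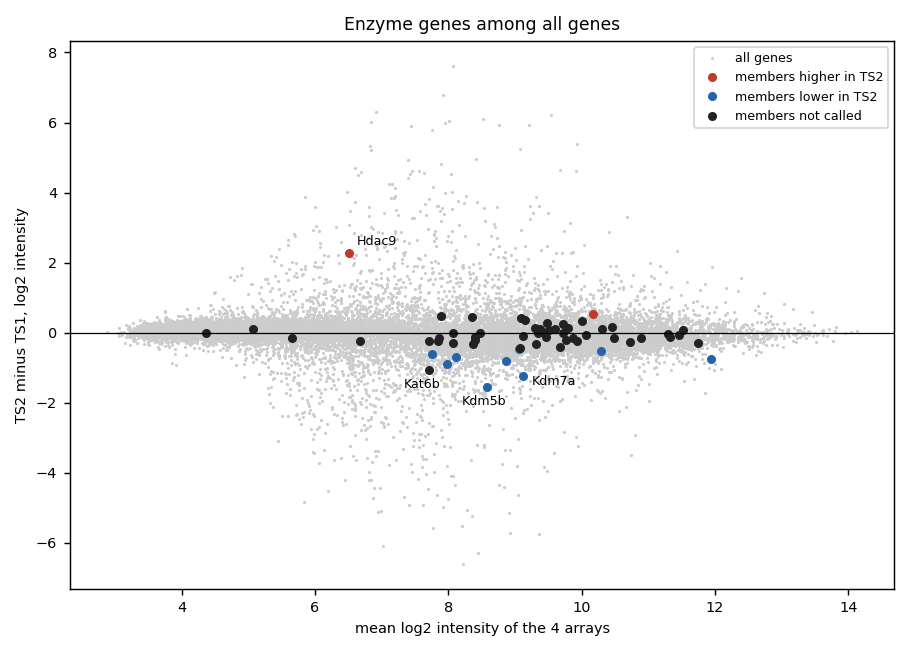
Difference between the lines (vertical axis, TS2 minus TS1, log2 intensity) against the mean log2 intensity of the 4 arrays (horizontal axis) for all 19938 genes in grey and the 59 enzyme genes in colour. The enzyme genes sit mostly to the right, in the brighter range, and close to 0, with Hdac9 above and Kdm5b, Kdm7a and Kat6b below.

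The partners of these enzymes and further enzymes with the same activities formed 6 lists of 122 genes, of which 117 were measured. Of these, 9 were higher in TS2, 11 were lower and 97 were not called. The 20 called make 17.1%, against 13.5% of all genes, and the median difference was -0.066. With the dimmest 30% of probe sets left out, all 117 stayed in and 21 were called (17.9%), against 20% of the remaining genes, so the share of calls lay near the background. With 1 array left out, the higher count was 4 on dropping TS1 A, 3 on dropping TS1 B and 1 on dropping either TS2 array, and the lower count was 7 on dropping TS1 A, 4 on dropping TS1 B, 3 on dropping TS2 A and 2 on dropping TS2 B. After renewed quantile normalization the split turned, with 10 higher and 7 lower.

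Among 11 measured partners of Polycomb complex PRC2, 1 was higher and 1 lower. Phf19, an accessory subunit that recruits the complex to chromatin, had 7.95 and 8.02 in TS2 and 6.85 and 6.13 in TS1. It differed by 1.49 (SE 0.24, adjusted p = 0.0222), a call lost on dropping TS2 A (adjusted p = 0.0948) and on dropping TS2 B (adjusted p = 0.101). Rbbp7, a histone-binding subunit that PRC2 shares with deacetylase complexes, had 11.59 and 11.51 in TS2 and 12.41 and 12.48 in TS1. The difference of Rbbp7 was -0.90 (SE 0.092, adjusted p = 0.00628), and it was called under all 11 alternatives.

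Of 26 measured partners of deacetylase complexes, 1 was higher and 1 lower by limma (7.69% called). At an unadjusted p under 0.05, 9 were higher and 2 lower, against 2462 and 3400 of all 19938 genes. Both called genes belong to the CoREST family, which joins LSD1 to Hdac1 and Hdac2. Rcor2 had 6.56 and 7.33 in TS2 and 8.43 and 8.80 in TS1. It differed by -1.67 (SE 0.28, adjusted p = 0.0244), a call lost on dropping TS1 A (adjusted p = 0.0528) and on dropping TS1 B (adjusted p = 0.0929). Rcor3 had 9.02 and 8.79 in TS2 and 8.25 and 8.42 in TS1, a difference of 0.57 (SE 0.12, adjusted p = 0.0435), and lost its call under 5 of 11 alternatives. The CoREST paralog Rcor1 was not called, at 0.037 (adjusted p = 0.841).

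Among 31 measured genes of other acetyltransferases and partners, 4 were higher and 4 lower. The share called was 25.8%, against 13.5% of all genes and 20% with the dimmest 30% of probe sets left out. Ncoa3, a nuclear receptor coactivator, had 11.21 and 11.20 in TS2 and 9.87 and 9.96 in TS1, and differed by 1.28 (SE 0.089, adjusted p = 0.00206), called under all 11 alternatives. The higher genes also included Brpf3 (difference 0.75, adjusted p = 0.0330), Jade2 (difference 0.68, adjusted p = 0.0273) and Crebbp (difference 0.48, adjusted p = 0.0284). Elp3 was among the lower genes (difference -0.48, adjusted p = 0.0375). Brpf3, Jade2, Crebbp and Elp3 were not followed singly through the alternative settings. Of the listed subunits of the MSL and NSL complexes, which hold Kat8, Msl3 and Kansl2 were lower in TS2 and Msl1, Msl2, Kansl1 and Kansl3 were not called, at -0.30, 0.14, -0.36 and 0.023. Msl3 had 10.33 and 10.45 in TS2 and 11.31 and 11.64 in TS1 (difference -1.08, adjusted p = 0.0116), and Kansl2 had 10.16 and 10.00 in TS2 and 10.67 and 11.001 in TS1 (difference -0.75, adjusted p = 0.0323). Esco2, an acetyltransferase of the cohesin subunit SMC3, had 10.21 and 10.10 in TS2 and 10.87 and 11.09 in TS1 (difference -0.82, adjusted p = 0.0142). Msl3 and Esco2 lost their calls on dropping TS2 A and on dropping TS2 B, and Kansl2 lost its call under 4 of 11 alternatives.

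Of 31 measured genes of other lysine methyltransferases and partners, 2 were higher and 2 lower. Nsd1 and Nsd2, methyltransferases of histone H3, were higher by 0.45 (adjusted p = 0.0369) and 0.46 (adjusted p = 0.0441). Dpy30, a core subunit of COMPASS complexes, and Smyd5, of the SMYD family, differed by -0.56 (adjusted p = 0.0491) and -0.44 (adjusted p = 0.0493). Each of the 4 lost its call under 5 to 7 of 11 alternatives.

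Among 11 other demethylase genes, Phf8 (difference -0.65, adjusted p = 0.0142) and Jmjd6 (difference -0.62, adjusted p = 0.0371) were lower and 0 were higher by limma. At an unadjusted p under 0.05, 4 were lower and 0 higher, against 3400 and 2462 of all 19938 genes. Phf8 belongs to the same subfamily as Kdm7a. Among 8 other arginine methyltransferase genes and partners, Ndufaf7, of mitochondrial complex assembly, was lower (difference -0.80, adjusted p = 0.00778) and Mettl23 was higher (difference 0.51, adjusted p = 0.0348). Phf8 lost its call under 3 of 11 alternatives, Jmjd6 under 6, Ndufaf7 under 2 and Mettl23 under 5.

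Of the 11 partners lower in TS2, Rbbp7, Msl3 and Phf8 are on chromosome X. The lists held 7 measured genes on X, of which 3 were lower and 0 higher. The part of the chromosome in these differences was not tested either. Genes of the cell cycle, which many of these enzymes accompany in dividing cells, were bright in the lines. Of 24 measured, 2 were higher in TS2 (Bub1b and Ccne1, named after their values were seen) and 0 lower by limma. At an unadjusted p under 0.05, 8 were higher and 1 lower, against 2462 and 3400 of all 19938 genes. The median difference of these cell cycle genes was 0.12. Their part in the differences of the enzymes was not tested.

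**Figure D4:**
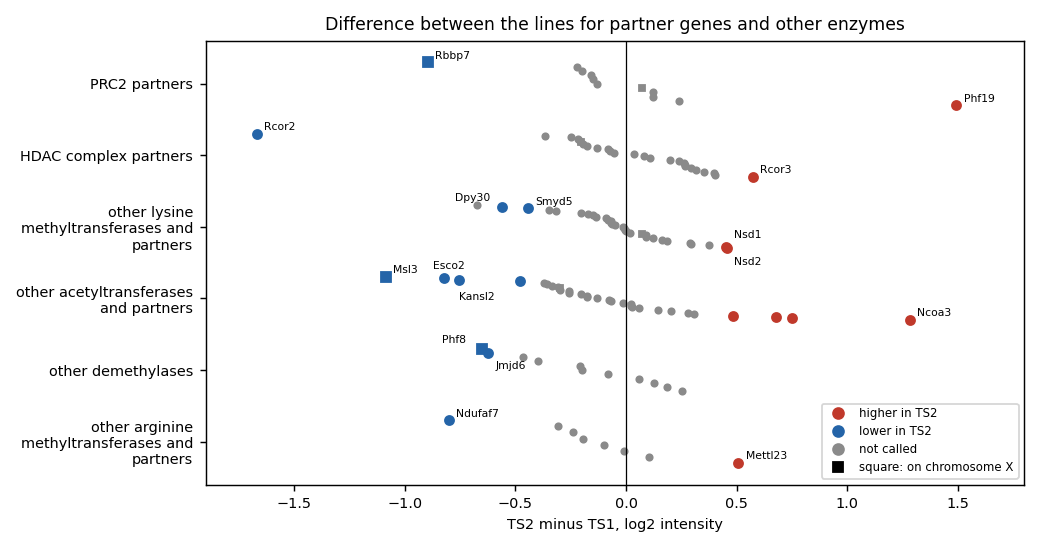
Difference between the lines (horizontal axis, TS2 minus TS1, log2 intensity) for 117 partner genes and other enzymes in 6 lists, 1 point per gene and list, red where higher in TS2, blue where lower, grey where not called, squares on chromosome X. Phf19 and Ncoa3 lie farthest to the right, Rcor2 farthest to the left, and Rbbp7, Msl3 and Phf8 are blue squares.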

How the data were processed

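Total RNA of the 4 samples was labelled with biotin and hybridised to Affymetrix mouse gene arrays, per the labels' protocols. Affymetrix Expression Console and RMA were used, per the submitters' processing notes, versions not stated. The authors deposited linear intensities between 5.98 and 23157, with column medians of 88.6 to 92.5. None was missing or at 0, so log2 was taken without a pseudocount. A shift common to most genes is removed by RMA. Detection calls and scan days are not analysed here, so background and batches could not be examined, and the number of arrays limits the precision.

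Probe sets were named from the platform annotation: 21789 of 35556 had 1 symbol, 1621 several and 12146 none. Symbols were updated by Entrez number through RefSeq GRCm38.p6 (21698 found). The model was fitted with limma 3.58.1 in R 4.3.3 over the 19938 genes, with 2 residual and 3.03 prior degrees of freedom. The fit was also run on data simulated from its own model, in which changed genes differed by 1 or 2. Smaller differences were not simulated there. The members and lists were chosen with earlier results of these data known. Named genes are every called member, uncalled members differing by at least 1, the largest difference of a class without calls, and up to 4 called genes per partner list, and the remaining members are given by class. Other list genes were named after their values were seen. The labels call the duplicates biological but do not say that they were separate cultures, so p-values measure the spread between these samples.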

Additional observations from a re-analysis of the deposited data

How the results depend on the processing

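The 11 settings tried were a replicate block on the letters A and B, dropping each array in turn, a robust or intensity-trended prior variance, each array centred on its median, renewed quantile normalization, the dimmest 30% of probe sets left out, and the mean of a gene's probe sets. No gene that met the naming rule given above changed direction under any of them, and Hdac9, Sirt3, Rbbp7 and Ncoa3 stayed called under all 11. The other genes given with values were not followed singly through these settings. With the replicate block, 1 member was called higher and 7 in all were called, 3 partners were higher and 6 lower, and 1666 of 19938 genes passed, against 2691. A minus B in TS2 and in TS1 correlated at -0.029 across genes, so no pairing by letter was seen. This correlation cannot settle whether arrays of the same letter were handled together. With 1 array left out, the lone array left is taken to vary as the other line does, and fewer degrees of freedom are left. Higher members then numbered 1 to 2, lower members 2 to 4, higher partners 1 to 4, lower partners 2 to 7 and called genes 979 to 2198, with 979 without TS2 A, 1035 without TS2 B and 1565 without TS1 B. The members' median, -0.13 with all arrays, ran from -0.14 to -0.091. It was -0.11 after centring and -0.046 after renewed quantile normalization, which also left 7 lower partners and 10 higher ones (58.8% of calls higher, against 45%). With an intensity trend, Kat6b passed as well.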
